A study of Mus musculus with 4 samples.

Results

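A set of 849 open chromatin regions of the mouse paraventricular nucleus of the hypothalamus (PVH) ranked weaker in both AAV-Cre libraries than in both AAV-GFP libraries. They were selected from 14331 regions that held a peak in all 4 ATAC-seq libraries, themselves part of 65969 merged regions on chromosomes 1 to 19. In ATAC-seq a transposase cuts accessible DNA, and a peak is a stretch with more cuts than its surroundings. For each library, the shared regions were ranked by the authors' −log10 p of their best peak and the rank was written as a percentile, with 0 the strongest region and 100 the weakest. A region became a member when both AAV-Cre percentiles lay above both AAV-GFP percentiles and the group means differed by 25 points or more. These percentiles chose the members, so every percentile, fold enrichment or q value of a member given here describes the choice and carries no test. The members made up 5.92% of the shared regions, and nothing is read from that share. Without the demand on size, 2829 shared regions (19.7%) had both AAV-Cre percentiles above both AAV-GFP percentiles. The mirrored rule selected 825 regions (5.76%) that ranked stronger after AAV-Cre, which serve below as the comparison set.

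All mice carried loxP-flanked Otp alleles and the Ai14 reporter (Otp fl/fl; Ai14), were 12 weeks old, and had their PVH dissected 4 weeks after a viral injection. The control group (2 libraries) had received AAV-GFP and the knockout group (2 libraries) AAV-Cre, the recombinase that removes the floxed part of Otp in infected cells. The protocols name no sorting of infected cells, so uninfected cells of the block are in every library. Neither the number of animals behind a library nor whether replicates are different animals is given in the labels, and the spread between the libraries of a group may be technical. In such bulk tissue, fewer cells of a type and less accessible chromatin per cell cannot be told apart.

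Otp is a homeodomain transcription factor that specifies neuroendocrine neurons of the hypothalamus, and the study looked for regulators of Mc4r, a receptor for melanocortin peptides that acts in the PVH to limit food intake. Promoters, the sequences around a transcription start, are the most widely shared open sites between cell types, while sites inside or between genes include enhancers and differ more from one cell type to the next. Many promoters of broadly used genes lack a TATA box and instead carry CpG-rich sequence, GC boxes bound by Sp1-type factors, and the CCAAT box, which the trimeric factor NF-Y binds and which is well known from promoters of cell division genes.

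The promoter sequences of 5 members are printed because the letters CCAAT (or ATTGG, the same site read on the other strand), set in capitals, were more frequent in member promoters than in those of all shared regions. All 5 were taken from members whose promoter holds the motif, so they do not show how common it is. Of 607 promoter windows touched by members, 310 (51.1%) held it. Each printed sequence is the run of 250 bases before the start of the gene in RefSeq (build GRCm38.p6), 5′ to 3′ on the strand of the gene. Rpsa encodes a protein of the small ribosomal subunit (chr9:120127516-120127765, + strand). Suox encodes sulfite oxidase of the mitochondria (chr10:128673919-128674168, − strand). Nemp1 encodes a protein of the inner nuclear membrane (chr10:127676815-127677064, + strand). Fam83d encodes a protein of the mitotic spindle (chr2:158767849-158768098, + strand). Mcm3 encodes a subunit of the replicative helicase (chr1:20820313-20820562, − strand).
Rpsa: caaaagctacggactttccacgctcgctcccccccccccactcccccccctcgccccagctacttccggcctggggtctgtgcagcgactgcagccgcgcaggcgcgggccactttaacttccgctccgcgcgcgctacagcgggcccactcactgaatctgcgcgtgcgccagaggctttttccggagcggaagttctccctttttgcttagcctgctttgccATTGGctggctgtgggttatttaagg
Suox: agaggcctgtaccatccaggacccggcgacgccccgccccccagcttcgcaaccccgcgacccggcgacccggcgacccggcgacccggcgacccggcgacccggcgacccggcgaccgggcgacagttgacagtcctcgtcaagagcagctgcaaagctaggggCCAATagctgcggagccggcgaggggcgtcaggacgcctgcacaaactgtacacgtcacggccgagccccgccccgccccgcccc
Nemp1: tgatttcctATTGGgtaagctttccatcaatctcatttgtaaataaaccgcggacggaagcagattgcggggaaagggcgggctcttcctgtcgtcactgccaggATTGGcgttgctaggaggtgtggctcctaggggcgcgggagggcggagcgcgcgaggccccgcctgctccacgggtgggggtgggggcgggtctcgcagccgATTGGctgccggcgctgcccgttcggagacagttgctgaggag
Fam83d: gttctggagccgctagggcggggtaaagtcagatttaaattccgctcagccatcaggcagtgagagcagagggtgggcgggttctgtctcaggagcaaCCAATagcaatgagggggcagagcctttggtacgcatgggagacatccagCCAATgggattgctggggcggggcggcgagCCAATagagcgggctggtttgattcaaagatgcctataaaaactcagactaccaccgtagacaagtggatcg
Mcm3: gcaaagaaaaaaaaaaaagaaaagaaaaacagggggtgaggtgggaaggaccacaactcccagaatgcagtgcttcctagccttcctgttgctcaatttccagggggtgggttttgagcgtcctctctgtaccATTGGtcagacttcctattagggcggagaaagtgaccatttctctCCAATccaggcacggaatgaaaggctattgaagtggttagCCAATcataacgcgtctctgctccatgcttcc
Each of the 5 runs lies whole within its member region. Counted to the middle of the motif, the site nearest the start lay 24 bp before it in Rpsa, 83 bp in Suox, 41 bp in Nemp1, 70 bp in Fam83d and 30 bp in Mcm3. Nemp1, Fam83d and Mcm3 each had 3 sites, at -239, -143 and -41 bp, at -150, -100 and -70 bp, and at -115, -70 and -30 bp. Such a match is a description of the sequence and not evidence of binding.

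The libraries differed in length before any ranking. The deposited lists held 57682 and 34100 peaks in the AAV-GFP libraries and 23384 and 26612 in the AAV-Cre libraries. No read counts were used, so the depth behind these lists is unknown. Over the 14331 shared regions, percentiles correlated across regions with Pearson's r = 0.814 between the AAV-GFP libraries and 0.707 between the AAV-Cre libraries, while pairs from different groups gave 0.695 to 0.739. The AAV-Cre libraries were thus no more alike in rank than libraries of different groups, and regions are not independent replicates. Of 9 PVH marker genes, Pou3f2 had a peak at a gene end in all 4 libraries and Nhlh2, Avp and Sst had one in none. Of 6 neuronal markers, 4 had one in every library, whereas 5 microglial and 5 vascular markers had none in any library. Other cell types were seen too: 2 of 4 ependymal and tanycyte markers (Foxj1 and Rax) had a gene-end peak in every library. So did 2 of 7 markers of neighbouring nuclei (Pomc and Agrp), 1 of 6 astrocyte markers (Gfap) and 0 of 5 oligodendrocyte markers. No member was assigned to a gene of these marker lists.

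Among the members, the median percentile was 35.6 and 38.9 in the AAV-GFP libraries and 75.0 and 73.2 in the AAV-Cre libraries. The difference of group means, called the shift, had a median of 31.8 points and a largest value of 65.9, against a standard deviation of 16.4 points over all shared regions. It reached 30 points in 529 members, 40 in 161 and 50 in 27. Replicates also differed: the median difference between the libraries of a group was 10.6 points for AAV-GFP and 13.9 for AAV-Cre, close to the 9.77 and 12.8 of all shared regions. In 659 members (77.6%) the shift was larger than both of these within-group differences. In the remaining members 1 library set a good part of the shift, as in the region 205903 bp from Nmur2 (chr11:56246890-56247573), with percentiles of 11.1 and 9.02 after AAV-GFP but 93.9 and 27.0 after AAV-Cre.

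**Figure D1:**
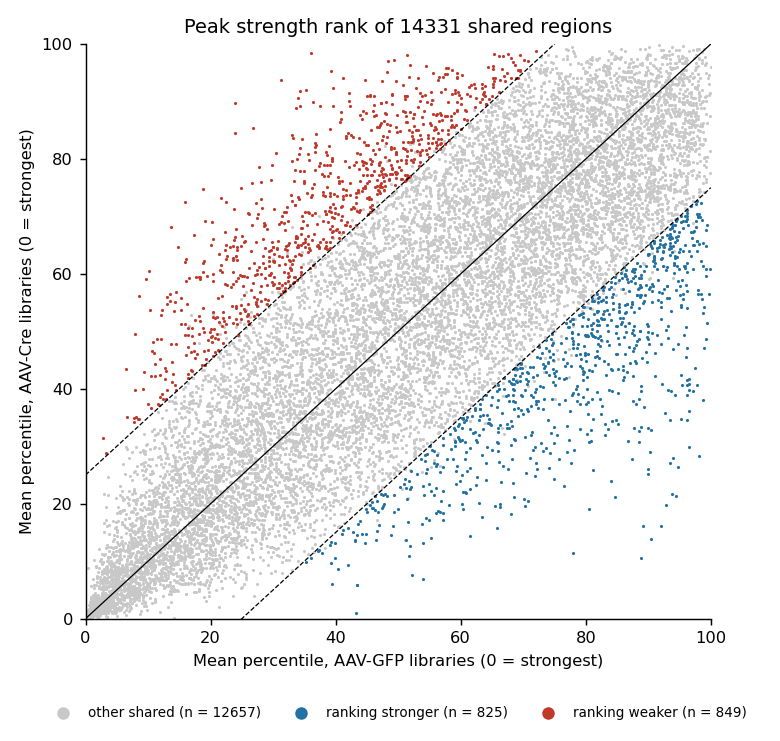
Mean percentile of each of the 14331 shared regions in the 2 AAV-Cre libraries (vertical axis) against that in the 2 AAV-GFP libraries (horizontal axis), with 0 the strongest; the dashed lines mark a difference of 25 points. The 849 members (red) lie above the upper line and the 825 regions of the mirrored rule (blue) below the lower one, and grey points beyond a line failed the demand that the groups not overlap.

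Within each deposited list, the members can be set beside all shared regions in the authors' own values. Their median fold enrichment over background was 10.7 and 9.21 in the AAV-GFP lists, where all shared regions had 8.94 and 7.98, and 5.35 and 5.60 in the AAV-Cre lists, where all shared regions had 6.55 and 6.85. Many were close to the threshold of the AAV-Cre lists: −log10 q was under 5 in 379 members (44.6%) and 284 members (33.5%) of the AAV-Cre lists, and in 0 and 1 members of the AAV-GFP lists. Their peaks were narrower as well, with median widths of 448 and 474 bp after AAV-GFP and 301 and 325 bp after AAV-Cre, beside 441, 477, 360 and 394 bp over all shared regions. In the lists that the authors called on each pooled group, 849 of 849 members overlapped a peak of the AAV-GFP pool and 847 (99.8%) a peak of the AAV-Cre pool. The members thus kept a called peak after AAV-Cre, since the rule asks for one in every library.

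Of the 20 members with the largest shift, 14 lay at a gene end, 5 between genes and 1 inside a gene. Fam210b, which encodes a mitochondrial membrane protein, led the list (chr2:172345225-172345851) with percentiles of 11.1 and 36.6 after AAV-GFP and 93.5 and 85.9 after AAV-Cre. The region of Rpsa (chr9:120127181-120128022) had 31.1 and 31.4, then 91.2 and 96.3, and its fold enrichment was 10.4 and 9.48, then 4.53 and 4.07. Rpsa had the widest empty space of all 849 members between the groups, 59.7 points between the lower AAV-Cre and the higher AAV-GFP percentile.

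A divergent promoter followed, shared by Erh, a small conserved RNA-processing cofactor, and Slc39a9, a zinc transporter (chr12:80643564-80644439), with 33.8 and 19.8, then 89.4 and 81.3. Urb1, a ribosome biogenesis factor, had 35.0 and 35.6, then 86.6 and 97.6. Suox had 42.2 and 25.7, then 86.6 and 94.6. In these 3 regions the groups were 44.3 to 50.9 points apart.

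Nemp1, a nuclear envelope protein, had percentiles of 12.0 and 19.9 after AAV-GFP and 71.1 and 74.1 after AAV-Cre. Lemd2, a LEM-domain protein of the inner nuclear membrane, had 15.5 and 22.2, then 85.9 and 63.5. Both were strong sites in both controls, and in Lemd2 the AAV-Cre libraries differed from each other more than the controls did.

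Neural genes were present among them too. Cdk5r2, which encodes the neuronal Cdk5 activator p39, had a member within 1 kb of a gene end (chr1:74858336-74858982) at 36.6 and 41.8, then 99.6 and 90.9, and a second one 3327 bp away with a shift of 28.0 points. Mturn, a regulator of neural progenitor differentiation, had 11.6 and 36.4, then 71.1 and 97.9. Rnf26, Slc29a3, Svip, Cep112 and Fam83d completed the gene-end members of this group with shifts of 51.5 to 55.1 points. At Cep112 the region was joined from separate peaks by the single peak of AAV-GFP replicate 2.

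Away from gene ends, the largest shift lay 27818 bp from Gad2, which encodes a GABA-synthesizing enzyme (chr2:22721695-22722290). It stood at 30.1 and 42.1 after AAV-GFP and at 97.9 and 98.9 after AAV-Cre, and its fold enrichment was 13.3 and 9.73, then 4.17 and 3.95. A site 14889 bp from Ntrk3, the neurotrophin-3 receptor (chr7:78595923-78596171), stood at 29.9 and 38.6, then 93.4 and 90.1. Both were among the 10 members with the widest space between the groups.

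Intergenic members with Pkdcc, a secreted tyrosine kinase, Vav3, a guanine nucleotide exchange factor, and Sucla2, a succinyl-CoA ligase subunit, as nearest genes had shifts of 53.4, 52.9 and 52.8 points. The Sucla2 site lay 451164 bp from that gene, so the nearest gene is only a landmark. Inside genes, the leading member lay in Lzts1 (chr8:69149118-69149685) with 38.7 and 27.4, then 84.4 and 83.8. Other intragenic members with shifts of 44.5 to 46.7 points lay in the neuronal genes Dlgap2, a postsynaptic scaffold, Dscam and Cntnap2, both cell adhesion molecules, and in Pak1, a Rac effector kinase.

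**Figure D2:**
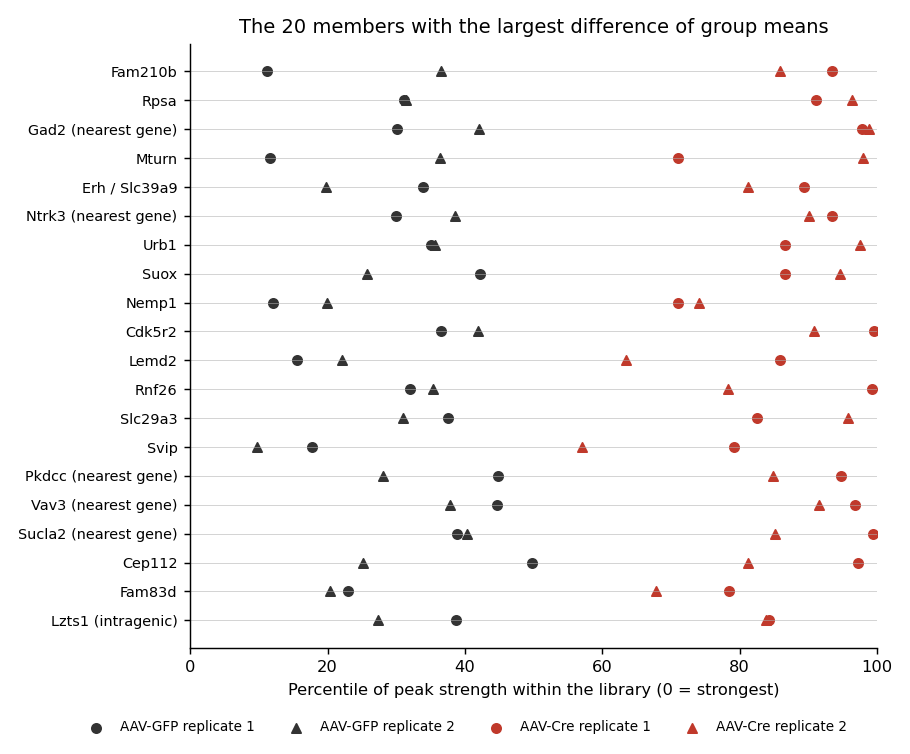
Percentile of peak strength in each library (horizontal axis, 0 the strongest) for the 20 members with the largest shift, from Fam210b (65.9 points) down to Lzts1 (51.0 points); black symbols are AAV-GFP libraries, red symbols AAV-Cre libraries, circles replicate 1 and triangles replicate 2. Names with "nearest gene" are intergenic regions, and in every row the black pair lies left of the red pair because the rule requires it.

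The members that were strongest in the controls came from near the top of the ranking. Arhgap19, a GTPase-activating protein that acts in cytokinesis, had a gene-end region (chr19:41801806-41802336) at 3.49 and 3.09 after AAV-GFP and 25.1 and 32.6 after AAV-Cre. Ncapg, a condensin subunit, had 2.41 and 13.9, then 19.2 and 51.2, so that its groups were only 5.31 points apart. Chchd2, a mitochondrial intermembrane space protein, had 6.52 and 9.46, then 46.7 and 52.3. Inpp5k, Foxred1 with Srpr, Mcu, Nsun6 with Arl5b, Slc38a9 and sites near Tead4 and Scaf8 made up the rest of these 10 members, with shifts of 26.2 to 36.8 points.

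At the other end, the threshold of 25 points separated regions with nearly the same values. Just inside lay Med22 with Rpl7a, a site 15536 bp from Ly6h, and Spag5, with shifts of 25.01, 25.02 and 25.02 points. Just outside lay Pelo, Ckm and Fam184a with 24.99, 24.98 and 24.97 points. Mc4r, whose gene-end region (chr18:66860348-66860676) had percentiles of 51.3 and 85.3 after AAV-GFP and 93.3 and 91.5 after AAV-Cre, had a shift of 24.1 points and so was not a member. A shared region 6546 bp from Otp (chr13:94868573-94869090) had 52.1 and 98.7, then 56.4 and 61.3, a shift of -16.5 points with overlapping groups. Without AAV-GFP replicate 2 that value was 7.29 points, so its sign depended on 1 library.

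Members lay at gene ends more often than shared regions as a whole, and far more often than the regions that ranked stronger. A gene end was taken as 1 kb to each side of the first or last base of a RefSeq protein-coding gene. By this definition 535 of 849 members (63.0%, 95% Wilson interval 59.7 to 66.2%) were at a gene end, against 54.7% of all shared regions and 27.2% of the 825 stronger-ranking regions. Elsewhere inside a gene lay 152 members (17.9%), against 25.7% and 36.8%. Between genes lay 162 members (19.1%), against 19.6% and 36.0%. Regions within a library share its processing, so this and all later intervals cover counting error only.

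**Figure D3:**
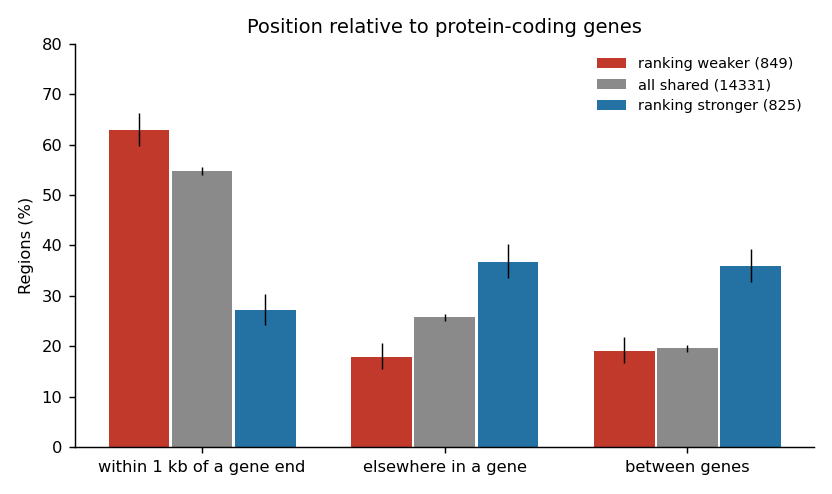
Share of regions (vertical axis, percent, with 95% Wilson intervals) within 1 kb of a gene end, elsewhere in a gene and between genes, for the 849 members (red), all 14331 shared regions (grey) and the 825 regions that ranked stronger (blue). Gene ends hold 63.0% of the members and 27.2% of the stronger-ranking regions.

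Gene-end regions are also the stronger ones in general. The shares at like mean percentile over the 4 libraries are given as a description, since that mean uses the percentiles that chose the members. Between 20 and 40, gene ends held 76.4% of members, 39.6% of stronger-ranking regions and 65.2% of all shared regions. Between 40 and 60 the shares were 65.3%, 35.3% and 54.1%, and between 60 and 80 they were 57.4%, 20.8% and 43.6%. Among the 25 weakest members, above 80, the share (28.0%) was below that of all shared regions (34.9%), and of the 2 members below 20 1 was at a gene end.

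Along the whole range of shifts the share did not climb steadily. It was 27.1% where the shift was -25 points or less, 42.9% and 51.9% in the next bins, and then 61.0%, 58.4%, 58.0% and 62.9% from a shift of -5 points upward. Most of the contrast was thus between regions that ranked stronger and all others, and the members differed little from regions with a shift near 0. The 7844 gene-end shared regions as a group had a median shift of 1.11 points, with mean percentiles of 41.9 and 42.4 after AAV-GFP and 44.3 and 44.5 after AAV-Cre. Intergenic shared regions had 58.6 and 58.7, then 56.8 and 55.2, and intragenic ones 60.6 and 59.6, then 56.9 and 57.7.

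The excess over all shared regions was not stable to the measure of strength. Ranked by fold enrichment in place of −log10 p, 55.0% of members were at a gene end against 54.7% of all shared regions, and without AAV-GFP replicate 1 the shares were 55.0% and 54.2%. With percentiles over each whole list the order was reversed, at 50.6% of members against 54.7% of all shared regions. Of the stronger-ranking regions 11.3% to 39.5% were at a gene end in the settings in which that set was drawn anew. The replicate block and the other window sizes were not applied to it.

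Of the 826 members on the chromosomes with RefSeq promoter windows (250 bases before to 50 after a start), 471 (57.0%) touched one, against 50.1% of shared and 24.7% of stronger-ranking regions. In these members the peak summit lay at a median of -63 and -57 bp from the nearest start in the AAV-GFP libraries and at -53 and -64 bp in the AAV-Cre libraries. Divergent promoters, with windows on both strands, made up 76 members (9.20%), close to 8.77% of shared regions. Members were 608 bp wide at the median (623 bp for all shared regions), and their gene-end regions (676 bp) were wider than the intergenic (525 bp) and intragenic ones (513.5 bp).

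The members were spread over all 19 autosomes, from 3.71% of shared regions on chromosome 19 to 7.99% on chromosome 10. Within 50 kb of each other lay 28 pairs with 56 members in all (6.60%). Of the 1076 shared regions within 50 kb of a member, 5.20% were members themselves, no more than the 5.92% of all shared regions, and 4.37% ranked stronger. Pairs included both Cdk5r2 regions, 2 sites near Ypel2 and 2 near Spcs3, a signal peptidase subunit, and the neighbours Slc25a38 and Rpsa. In all, 21 genes had 2 members, among them Foxo1, a transcription factor of insulin signalling, Ephb3, an ephrin receptor, and Ntrk3.

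The base composition of member promoters was that of open promoters in general. The 607 windows touched by members (550 genes) had a median GC content of 62.0% and 23 CpG sites, against 62.7% and 23 in the 9177 windows of all shared regions, 61.0% and 22 in the 255 windows of stronger-ranking regions, and 53.0% and 7 in all 31396 RefSeq windows.

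The CCAAT box was more frequent in member windows than in the others. The letters CCAAT occurred on either strand in 310 of 607 member windows (51.1%, interval 47.1 to 55.0%), in 41.7% of the windows of all shared regions, in 20.4% of those of stronger-ranking regions and in 37.3% of all RefSeq windows. At least 2 copies were present in 25.5% of member windows, 17.7% of shared and 3.92% of stronger-ranking windows. With 1 window a region, the shares were 52.0%, 42.1% and 19.3%. The sites lay at a median of -83.5 bp from the start in members and -84.0 bp in all shared regions.

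Within mean percentiles of 20 to 80, the order of the shares was the same at like strength. Between mean percentiles of 20 and 40, 63.0% of member windows, 44.1% of shared and 27.7% of stronger-ranking windows held the motif. Between 40 and 60 the shares were 56.3%, 35.1% and 20.0%, and between 60 and 80 they were 38.4%, 28.8% and 16.9%. Outside that range it was not: below 20, 1 of 2 member windows and 58.7% of shared windows held it, and above 80, 0 of 9 member windows against 27.0% of shared and 1 of 4 stronger-ranking windows.

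Along the shift, the share of windows with CCAAT was 20.2% at -25 points or less, 29.9% and 32.4% in the next bins, 47.9% around 0, 43.0% and 42.5% above that, and 51.4% at 25 points or more. It was lowest in the regions that ranked stronger, as was the share at gene ends. The excess in members was smaller whenever a library was left out. Without AAV-Cre replicate 2 it was 41.4% against 41.3% of all shared windows, without AAV-Cre replicate 1 it was 42.4% against 40.8%, without AAV-GFP replicate 1 it was 45.4% against 42.0%, and without AAV-GFP replicate 2 it was 44.7% against 41.9%. When the percentile was taken over each whole list, it was 37.2%, below all shared windows. Stronger-ranking windows held it in 0.0% to 28.1% in the settings in which that set was drawn anew.

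**Figure D4:**
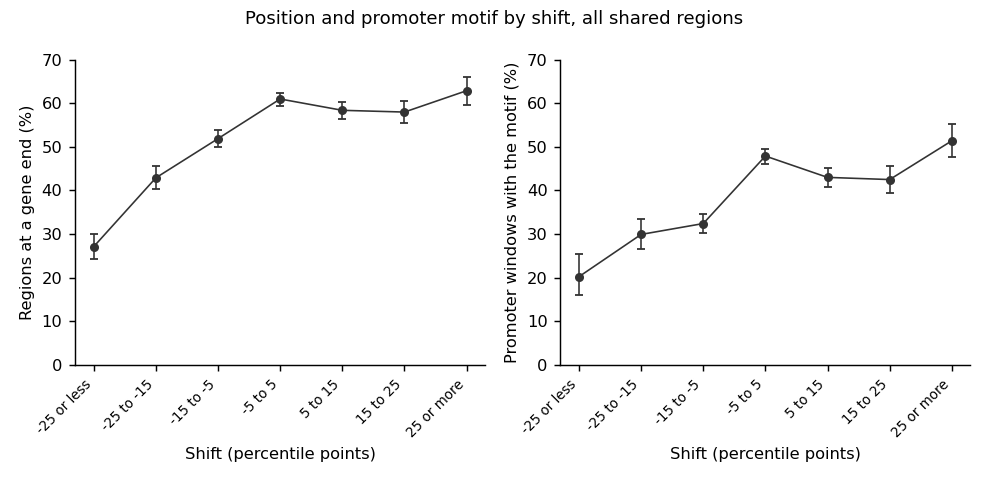
Share of shared regions at a gene end (left panel, percent) and of promoter windows with the CCAAT box (right panel, percent) in 7 bins of the shift (horizontal axis, percentile points, positive for weaker after AAV-Cre), with 95% Wilson intervals. Both shares are lowest where regions ranked stronger (27.1% and 20.2%), near 61.0% and 47.9% around a shift of 0, and 62.9% and 51.4% at 25 points or more.

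In percentage points, the other promoter motifs differed less, which for the rarer ones says little about the ratio of the shares. The GC box (GGGCGG, either strand) was in 75.5% of member windows, 69.7% of shared, 62.4% of stronger-ranking and 36.0% of all RefSeq windows. A GC box and a CCAAT box stood together in 38.2%, 28.8%, 12.9% and 12.8%. The ETS motif (CCGGAAG) was in 25.5% of member and 20.9% of shared windows. The homeodomain core TAATTA, the kind of site that homeodomain factors such as Otp recognise, was in 13 member windows (2.14%, interval 1.26 to 3.63%), 1.63% of shared, 0.392% of stronger-ranking and 5.27% of all RefSeq windows. For the cAMP response element (TGACGT, 11.7% of member and 13.9% of shared windows), NRF1 (GCATGCGC, 7.58% and 6.42%) and the TATA box (TATAAA, 6.26% and 5.17%), the shared value lay inside the interval of the members. For the E-box (CACGTG, 12.9% and 10.3%) it lay just below the interval, which began at 10.4%. No sequence of intergenic or intragenic members was searched.

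The genes assigned to members were 916 in number, at the gene end where there was one, else the gene that held the region or the nearest gene. Against 31 gene lists, 136 members (16.0%) fell in at least 1 list, as did 14.6% of shared regions. Some lists were joined into groups after the list counts had been seen, so the tallies of lists describe that choice and test nothing. All 5 lists of ribosome, translation, respiratory chain and splicing genes had a larger share of members than the 5.92% of all shared regions. Of 12 lists of neuronal, glial, vascular and ependymal genes, 8 had a smaller one. Proteasome and ubiquitin enzyme genes, placed in neither group, gave 7 of 139 (5.04%, 3 stronger).

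Ribosomal protein genes form the first of these groups. Of 84 shared regions assigned to cytosolic ribosomal protein genes, 9 ranked weaker (10.7%, beside 5.92% of all shared regions) and 1 stronger. Besides Rpsa, members at gene ends included those of Rps3, Rpl34, Rpl7a and the stalk proteins Rplp0 and Rplp2, and those nearest Rps29 and Rplp1 were intergenic. Rps3 had percentiles of 21.9 and 15.5 after AAV-GFP and 75.2 and 48.7 after AAV-Cre, and Rplp0 38.1 and 36.2, then 73.2 and 56.7. In Rpl34, near the top of the controls at 3.88 and 14.5, the AAV-Cre libraries disagreed, with 58.7 and 21.3.

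Among tRNA synthetase and translation factor genes, 8 of 94 (8.51%) ranked weaker and 0 stronger. They were the synthetases Wars, Kars, Dars, Cars and Qars, the initiation factor subunit Eif2b5, the kinase Eif2ak1, which restrains initiation, and Eif4ebp2, a repressor that binds the cap-binding protein. The Dars site lay 54667 bp from the gene, which is only a landmark. Eif2ak1 stood at 30.6 and 26.8, then 75.5 and 61.6, and Eif4ebp2 at 10.2 and 11.8, then 36.7 and 55.8. Mitochondrial ribosome genes gave 7 of 79 (8.86%, 4 stronger), led by Mrpl2 with Cul7 at 31.8 and 34.3, then 78.8 and 80.6. That region touched a promoter window of Cul7 and none of Mrpl2.

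Splicing factor genes gave 7 of 63 (11.1%, 1 stronger): Sf3b5, Hnrnpu, Hnrnpa0, Hnrnpm, Srsf4, Srsf1 and Snrpd3. Sf3b5, a subunit of the branch-point recognition complex, had the largest shift of them, with 6.71 and 10.3 after AAV-GFP and 61.2 and 51.2 after AAV-Cre. Respiratory chain genes gave 7 of 75 (9.33%, 4 stronger). Sdhb, the iron-sulfur subunit of complex II, stood at 8.60 and 19.1, then 43.1 and 39.3, and Atp5h, of the ATP synthase, at 47.5 and 54.7, then 86.4 and 94.6.

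Chromatin regulator genes gave 6 of 74 (8.11%, 1 stronger). Ep300, a histone acetyltransferase, had 34.8 and 78.2, then 93.9 and 94.6, so 1 control library lay close to the AAV-Cre libraries. Dnmt1, the maintenance DNA methyltransferase, had 16.8 and 22.5, then 43.7 and 49.7. Smarcc1, Kmt2d, Ezh1 and Chd2 were the others. The Chd2 site lay 53422 bp from the gene, which is only a landmark. The Kmt2d region touched a promoter window of its neighbour Prkag1 and none of Kmt2d.

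Stress genes gave 2 of 34 (5.88%, close to the share of all shared regions), Ddit3 with Mbd6 at 27.8 and 21.8, then 60.1 and 89.7, and Gadd45b at 25.9 and 21.7, then 59.9 and 71.8. Ddit3 encodes a transcription factor of the unfolded protein response and Gadd45b a growth arrest factor. Solute carriers (25 of 291, 8.59%) had 23 stronger-ranking regions, and ion channels (9 of 145, 6.21%) had 15. Small GTPase genes gave 10 of 126 (7.94%, 4 stronger) and zinc finger genes 15 of 376 (3.99%, 13 stronger).

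Genes that mark the PVH, its neurons and its glia had few shared regions and few members, so their shares are imprecise. No member was assigned to a PVH peptide or hormone gene (0 of 19 shared regions), an astrocyte gene (0 of 22) or an oligodendrocyte lineage gene (0 of 9). Of the PVH lineage transcription factors only Tcf4 had one (1 of 20, 5.0%, near the 5.92% of all shared regions), inside the gene, at 42.2 and 47.9, then 66.2 and 88.3. Of the melanocortin and energy balance genes only Pde4d, a cAMP phosphodiesterase, had one (1 of 42, 2.38%), at 41.4 and 40.9, then 52.7 and 81.9, whereas 6 regions of that list ranked stronger.

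Pan-neuronal genes gave 3 of 58 (5.17%), Ncam1, Rbfox1 and Celf4, and transmission genes gave 3 of 43 (6.98%), Gad2, the GABA-B receptor gene Gabbr2 and the vesicular glutamate transporter gene Slc17a7. None of these 6 was at a gene end. The Celf4 site lay 1902909 bp from the gene and the Rbfox1 site 222264 bp, so both are landmarks. Neuronal activity genes gave 2 of 56, Ier5 and Srf, and homeobox genes 1 of 33, Dlx5, at 51.1 and 53.8, then 79.5 and 92.1. Ptprc and Cdh5, markers of immune and endothelial cells, were also only nearest genes, 164184 and 477315 bp away.

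Joined after these counts had been seen, the 12 lists of neuronal, glial, vascular and ependymal genes had 14 members among 314 shared regions (4.46%) and 29 stronger-ranking regions (9.24%). Joined likewise, 5 lists of ribosome, translation, respiratory chain and splicing genes had 38 members (9.69% of their shared regions) and 10 stronger-ranking regions (2.55%). Of the latter regions 79.8% lay at a gene end and of the former 36.3%. Among gene-end regions alone, 34 regions of the machinery lists (10.9%) and 2 of the brain lists (1.75%) were members, beside 6.82% of all gene-end shared regions. Over all shared regions of the machinery lists the median percentiles were 38.1 and 39.6 after AAV-GFP and 43.3 and 44.6 after AAV-Cre, and over those of the brain lists they were 59.9 and 61.6, then 55.2 and 56.7. The brain lists were no longer below the share of all shared regions without AAV-Cre replicate 1 (12.0% against 10.3%). With percentiles over each whole list, both groups were near the share of all shared regions (18.2% and 19.6% against 18.4%).

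**Figure D5:**
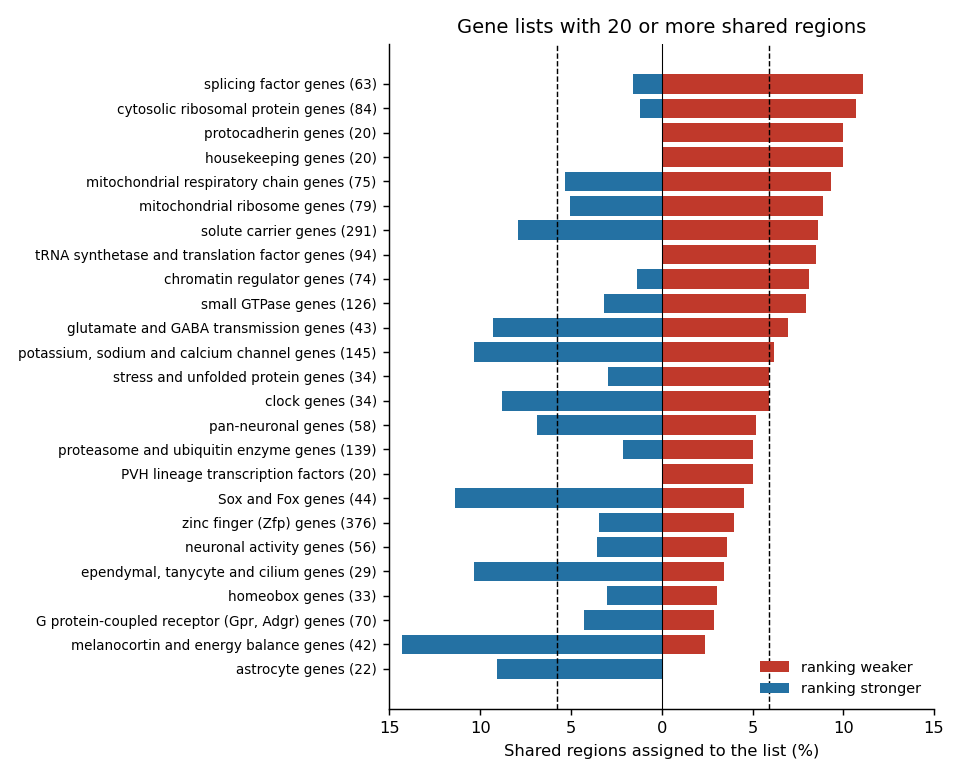
Share of the shared regions assigned to each gene list (number in brackets) that ranked weaker (red, to the right, percent) or stronger (blue, to the left, percent) after AAV-Cre, for lists with 20 or more shared regions; dashed lines mark the shares over all shared regions, 5.92% and 5.76%. Splicing factor (11.1%) and ribosomal protein genes (10.7%) stand at the top and astrocyte genes (0 of 22) at the bottom.

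Some cell division genes were noticed among the named members. A list of 124 genes of cell division and DNA replication was then written after the members were seen, and it is a description with no independent weight. Of 104 shared regions assigned to it, 21 ranked weaker (20.2%, interval 13.6 to 28.9%) and 1 stronger. Beside this, 5.92% of all shared regions and 6.82% of those at a gene end ranked weaker. The interval does not cover the choice of the list. Leaving out the 6 genes that had been noticed before the list was written, 15 of 96 (15.6%) ranked weaker. All 104 regions together had median percentiles of 32.8 and 30.8 after AAV-GFP and 45.3 and 46.9 after AAV-Cre, and a median shift of 5.26 points, where all shared regions had -0.014.

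The 21 members covered several steps of the cycle, and 18 lay at a gene end. Replication was represented by the helicase subunit Mcm3 (18.1 and 20.1, then 62.5 and 75.8), the initiation factor Mcm10 (20.3 and 20.4, then 75.9 and 43.9) and the clamp loader subunit Rfc2. Kinetochore and centromere genes were Cenpc1 (13.3 and 27.2, then 89.1 and 48.8), Spc24 (24.4 and 22.8, then 45.5 and 79.2) and Cenpa, the centromeric histone variant (30.5 and 25.7, then 38.3 and 77.6). In each of these 3, 1 AAV-Cre library lay much closer to the controls than the other.

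Spindle, centriole, cohesion, condensation and cytokinesis genes were Fam83d (23.0 and 20.4, then 78.5 and 67.9), Kif20b, Kif2c, Cenpj, Esco2, Spag5, Ect2, Arhgap19, Ncapg, Ncapg2 and Ncapd2. Ccnb2, which encodes cyclin B2 (56.1 and 59.0, then 96.8 and 92.7), and the transcription factors E2f4 (42.6 and 53.6, then 84.0 and 95.7) and E2f2 were members as well. For Mad2l1, a spindle checkpoint gene, the site lay 173655 bp away. Of the 16 promoter windows of listed genes in these members 13 held CCAAT, as did 52 of 76 (68.4%) in all shared regions of the list, beside 41.7% of shared windows.

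The cell division list was written after the members were seen and every setting reuses the same libraries, so the settings do not test it. Its share was above that of all shared regions in each of the 14 other settings of the rule. It was lowest with the replicate block, at 6.73% (7 of 104) against 2.12%, and highest with percentiles over each whole list, at 28.8% against 18.4%. Leaving out 1 library at a time gave 17.0% to 25.5% against 7.62% to 10.4%. By the same kind of later choice, replication-dependent histone genes had 4 members among 44 shared regions (9.09%, beside 5.92% of all shared regions). The 4 lay in the clusters of chromosomes 13 and 3. Of the 2 markers of glial precursors, a dividing cell type of the adult brain, Pdgfra had a gene-end peak in both AAV-GFP libraries and in neither AAV-Cre library, and Cspg4 had one in none. Sim1 and Trh of the PVH and Dlx2 of neighbouring nuclei showed the same pattern as Pdgfra, and the AAV-Cre lists are the shorter ones. Of the oligodendrocyte markers, Olig1 had a gene-end peak in both AAV-GFP libraries and in AAV-Cre replicate 2, and Olig2 only in AAV-GFP replicate 1. A link between any of these marker peaks and the cell division members was not tested.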

How the data were processed

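ATAC-seq was run on 2 AAV-GFP and 2 AAV-Cre PVH libraries. The submitters' processing notes name Trim Galore, FastQC, MACS2, Bowtie2 and build mm10. For versions, read filters, a transposase shift and depth, nothing is given in the sources used here. The authors deposited 1 narrowPeak list per library and 1 per pooled group. In each, the deposited start, end and summit are in bp and the score is a scaled −log10 q. The fold enrichment is a deposited ratio of summit to background signal. Columns of −log10 p and −log10 q were used as the authors deposited them.

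Peaks of the 4 libraries that shared 1 bp were merged, and regions on chromosomes 1 to 19 with a peak in every library were ranked within each library by best −log10 p. Python 3.11.15, pandas 2.3.3, numpy 2.4.6 and scipy 1.17.1 were used, and the rule was checked on simulated lists. The planned windows of 1 kb were placed at both ends of 20661 RefSeq protein-coding genes, since the gene table gave no strand. Promoter windows (31396, GRCm38.p6) were searched for 16 motifs on both strands, and of 1792 overlapping windows on opposite strands all 1792 were reverse complements. Promoter statistics cover the 826 members on chromosomes with windows. Of 2317 entries in the 31 gene lists, 2307 matched.

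The members, gene lists and motifs were chosen with earlier results of these data known, and 2 further lists were written after the members were seen. Named regions were the 20 largest shifts, the 10 widest gaps between groups, the 10 strongest in controls, up to 6 per gene list, 3 on each side of the threshold, Otp, Mc4r, and members within 50 kb of each other. Of these 174, the text gives those that describe a group. Others named, such as Nmur2, Dlgap2, Dscam, Cntnap2, Pak1 and the cell division genes, were chosen after their values were seen. The 4 libraries can be split in 3 ways, so the smallest exact p is 0.333 and no test was made. Wilson intervals are at 95%. Alternatives changed the ranking measure, list length, q threshold, overlap, size of shift, window and libraries.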

Additional observations from a re-analysis of the deposited data

How the results depend on the processing

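The count of members (849), their share at gene ends (63.0%), their median width (608 bp) and the share of their promoter windows with CCAAT (51.1%) were recomputed under each alternative. With percentiles over each whole list they were 2630, 50.6%, 572.5 bp and 37.2%. Ranked by fold enrichment, the gene-end share was 55.0% and the width 576.0 bp (54.7% and 623.0 bp over all shared regions). With lists of equal length, 66.7% were at gene ends and 56.4% of windows held CCAAT (59.3% and 43.0% over all shared regions). With −log10 q of at least 5, the values were 69.1%, 649.0 bp and 59.1% (61.5%, 671.0 bp and 44.9% over all shared regions). With peaks trimmed to 100 bp on each side of the summit, the width was 297.0 bp by construction and the CCAAT share 55.5% (292.0 bp and 44.5% over all shared regions). A shift of 20 points or more gave 1297 members and of 30 points 529. With exactly 1 peak in every library the width was 569.0 bp (583.0 bp over all shared regions). With windows of 2500 bp, 66.2% were at gene ends (59.5% over all shared regions). Leaving out 1 library at a time gave 1107 to 1866 members, 50.9% to 60.2% at gene ends, widths of 536.0 to 550.0 bp and CCAAT shares of 41.4% to 45.4%. Over all shared regions of these runs the values were 47.9% to 54.2%, 554.0 to 570.0 bp and 40.8% to 42.0%. Such runs kept 71.0% to 81.4% of the members, and −log10 q of at least 5 kept 44.1%. Apart from what is noted as by construction, the cause was not tested.

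The labels number the replicates but name nothing shared by a number, and same-numbered libraries of the groups (r = 0.695 and 0.739) were no more alike than the others (0.710 and 0.732). As a replicate block, a shift of 25 points or more in both same-numbered differences left 304 members, with 57.2% of windows holding CCAAT and 63.8% at gene ends. Over all shared regions these shares were 41.7% and 54.7%. Of 1762 recomputed shifts of the 174 named regions, 1441 moved by less than the spread between replicates, 319 moved by more and 2 changed sign, both without AAV-GFP replicate 2. The 1441 include the setting with exactly 1 peak in every library, which filtered regions without ranking them again. Its shifts were unchanged by construction. Leaving out single libraries gave -1.26 to 64.15 points at Cep112 and -40.21 to 7.29 points at Otp. Without AAV-GFP replicate 2 the Cep112 region split, so that -1.26 belongs to 1 part of it and is not a value of the same region. The alternatives for CCAAT, the gene lists and the cell division list were chosen after seeing the data.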

Other observations

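On chromosome X, ranked apart from the autosomes within its own 289 shared regions, 24 regions (8.30%) met the weaker rule and 21 (7.27%) the stronger one. Within 1 kb of a microRNA hairpin lay 8 members (0.942%, beside 0.607% of shared regions), among them the hairpins of Mir9-3, a precursor of the neural microRNA miR-9, and Mir874. Of the 307 members outside gene ends and on chromosomes with promoter windows, 17 (5.54%) lay at the start of a long non-coding RNA, as did 5.37% of such shared regions.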
